A study of Homo sapiens
Mus musculus with 17 samples.

Results

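The genes described here, in reads of human tumour cells, encode chemokines and cytokines, namely CCL5, CCL20, CCL2, IL8, CXCL1, CXCL2, CXCL3, IL6, IL1A and IL1B. They were taken by name from a table of 23368 human genes, and all 10 were found in it. The list was chosen with earlier results of these data known, so how many members passed is not a test of the set. The libraries are bulk RNA sequencing of 17 xenograft tumours of VM-CUB-1, a single cell line of human bladder cancer, grown in athymic nude (Foxn1nu) mice, which lack a thymus but keep natural killer cells and myeloid cells. The source label reads PDX, although the transplanted cells are a cell line. All mice were dosed for 7 days before the tumours were taken. Mice of the combination group (n = 4) received alpelisib at 25 mg/kg with nintedanib at 40 mg/kg. Mice of the alpelisib group (n = 4) received 25 mg/kg alone and those of the nintedanib group (n = 5) 40 mg/kg alone. Vehicle mice (n = 4) received 0.5% methylcellulose with 0.1% Tween80. Of the nintedanib tumours, the titles call 3 responders and 2 non-responders, whereas the series description gives these numbers the other way round, so directions between the 2 classes follow the titles. Alpelisib inhibits the alpha isoform of PI3-kinase, and nintedanib inhibits the VEGF, FGF and PDGF receptors. The study asks how the 2 drugs act together on a tumour described as resistant to nintedanib.

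Chemokines are small secreted proteins that attract leukocytes through G-protein-coupled receptors. In carcinoma cells the genes for IL8, CXCL1, CXCL2, CXCL3, CCL20, CCL2 and IL6 are known targets of NF-kB, which IL-1 itself can switch on, and CCL5 is a target of NF-kB and of interferon regulatory factors. In bladder cancer these proteins are known for drawing neutrophils, macrophages and T cells and for promoting angiogenesis.

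Values are normalized counts, which are read counts divided by a size factor of each library, and libraries are named by group and number. Total human reads ranged from 7429753 to 25654879 per library and mouse reads from 2271764 to 7438823. Ribosomal RNA (Rn45s and Lars2) took 1.73 to 72.9% of the mouse reads, with over 40% in Vehicle 3, Combination 4, Alpelisib 3 and Combination 1. All 12 markers of urothelial carcinoma with basal features were present, among them KRT5, with 105222 normalized counts on average, and TP63, with 3671. Genes were tested with limma on log2(normalized count + 1) over the 14533 human genes whose mean reached 10 normalized counts. Passing means a p under 0.05 after Benjamini-Hochberg adjustment over these genes. Changes are log2 fold changes ± standard error (SE), and levels are means ± SD. Of the 10 genes, 9 met the minimum and CCL2 did not.

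Human reads of each gene were set beside those of its mouse counterpart. Reads were mapped separately to both genomes, so some mouse reads may have been counted as human, or the reverse. Over all genes except Rn45s and Lars2, mouse reads made up 12.3% (Combination 3) to 20.45% (nintedanib responder 2) of a library. In reads not corrected for transcript length, CCL5 had 53508 human reads over the 17 libraries, against 3541 for mouse Ccl5, so that 93.8% were human. The human share was 96.5% for CCL20 and 97.1% for IL1A. For all 3, human reads outnumbered mouse reads in 17 of 17 libraries. CXCL1 (61.0%), CXCL2 (67.3%), IL6 (71.6%) and CXCL3 (74.0%) were mixed, with more human reads in 14, 15, 12 and 15 libraries. IL1B had 3197 human reads, against 12447 for mouse Il1b, and mouse reads were more numerous in 17 of 17 libraries. CCL2, which encodes the monocyte attractant MCP-1, had 6 human reads in all libraries together, against 6576 for mouse Ccl2. The name of a tumour-made chemokine therefore did not hold for CCL2 in these libraries. IL8 has no direct counterpart in mice.

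**Figure D1:**
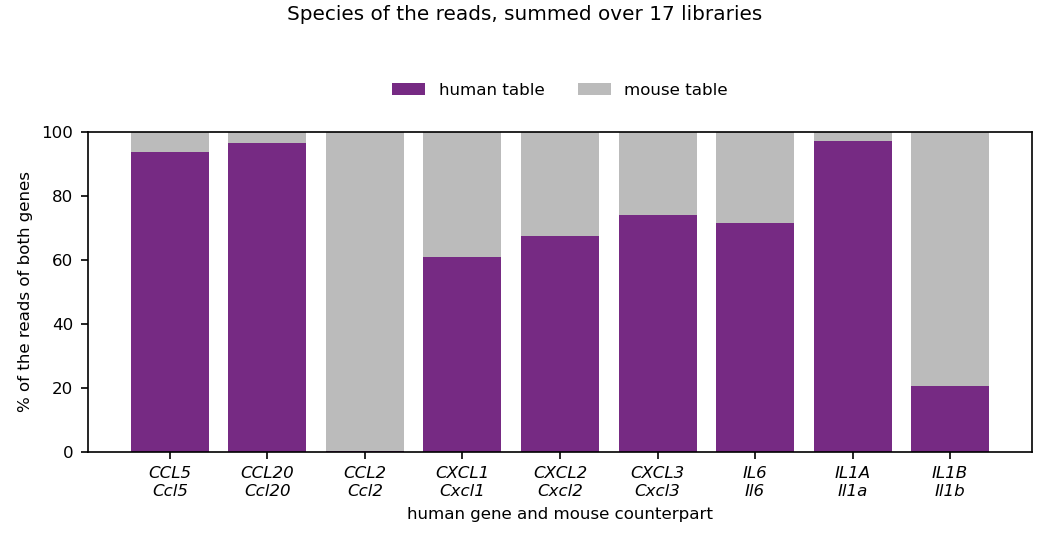
Share of the reads of each gene and its mouse counterpart that lay in the human table (purple) or the mouse table (grey), summed over the 17 libraries and plotted in percent for 9 gene pairs. CCL20, CCL5 and IL1A are nearly all human, IL1B is 20.4% human and CCL2 0.0912%.

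CCL5 encodes RANTES, a chemokine for T cells, natural killer cells, monocytes and eosinophils. It rose in combination tumours, where it had 3073, 6293, 2712 and 4285 normalized counts, against 1011, 908, 1061 and 2292 in vehicle tumours. All 4 combination libraries lay above all 4 vehicle libraries. The means were 4091 ± 1615 in combination and 1318 ± 652.5 in vehicle tumours (SD, n = 4 each), and the change was 1.66 ± 0.35 (95% interval 0.93 to 2.39, limma adjusted p = 0.0484). CCL5 was the only one of the 9 tested members to pass in this comparison, in which 0.358% of all tested genes passed (52 genes), 0.317% passed as higher and 5.27% lay higher in all combination libraries without overlap. In bulk tumours, more cells that express a gene and more RNA per cell cannot be told apart. Whether each tumour of a group had its own mouse is not in the labels, and the spread behind the p-values is that between libraries.

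The size of the CCL5 change moved less over alternative settings than its call, but many settings could not move it. Changing the filter, adding the replicate block, fitting only the compared groups or leaving out an alpelisib or nintedanib library kept it at 1.66. Over 27 alternative settings the change lay between 1.43 and 1.97, with a largest unadjusted p of 0.00352, and the adjusted p was under 0.05 in 11 of them and not in 16. The call was lost by edgeR (adjusted p = 0.0627), and with DESeq2 the adjusted p was 0.00151. Leaving out Combination 2, 3 or 4, any alpelisib library, or Vehicle 1, 2 or 3 gave adjusted p values between 0.0642 and 0.194 and changes between 1.43 and 1.83. Without the 4 libraries highest in ribosomal RNA, the change was 1.69 and the adjusted p 0.188. With the replicate number as a block the change was 1.66 and the adjusted p 0.0713.

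Each drug alone was also followed by high CCL5 values, but neither change passed. Alpelisib tumours had 3480, 2336, 3596 and 3763 normalized counts, all above the 4 vehicle libraries. The mean was 3294 ± 649, and the change 1.41 ± 0.35 (unadjusted p = 0.000771, limma adjusted p = 0.209). For alpelisib against vehicle, 0% of the tested genes passed, while 5.89% lay higher in all alpelisib libraries without overlap. Nintedanib responders had 5472, 2503 and 2836 normalized counts and non-responders 1368 and 3134. Non-responder 1 therefore lay below Vehicle 4, and the other 4 nintedanib libraries lay above it. The mean over all 5 was 3063 ± 1504, and the change 1.19 ± 0.33 (unadjusted p = 0.00208, limma adjusted p = 0.619), where 0% of the tested genes passed. By DESeq2, in which CCL5 was the only member with an adjusted p, CCL5 passed in both comparisons (adjusted p = 0.0123 for alpelisib and 0.0440 for nintedanib).

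CCL5 did not differ detectably between the treated groups. The combination differed from alpelisib by 0.26 ± 0.35 (95% interval -0.47 to 0.99, limma adjusted p = 0.959) and from nintedanib by 0.48 ± 0.33 (95% interval -0.22 to 1.17, adjusted p = 0.988). In both comparisons 0% of the tested genes passed, and 4.46% and 3.83% had an unadjusted p under 0.05, with 0 members among them. Responders differed from non-responders by 0.71 ± 0.45 (adjusted p = 0.999), a value that was 0.36 without responder 1, 0.11 without non-responder 1 and 1.31 without non-responder 2. On the log2 scale the combined change was smaller than the sum of both single changes by 0.93 ± 0.48, written as a departure from additivity of -0.93, which did not pass (unadjusted p = 0.0689, adjusted p = 0.662). The order of the group means was combination, responders, alpelisib, non-responders and vehicle. Neighbouring groups in that order overlapped in every case, and the differences between these neighbours were not tested.

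T and natural killer cells make CCL5 in most tissues, so markers of other cells in the human table were counted beside CCL5. The human cells here came from a cell line. Such markers could thus only reflect expression by tumour cells or mouse reads counted as human. They do not measure the cells of the host, whose mouse markers are not given here. The 7 T and natural killer markers in the human table summed to 4.98 to 10.45 normalized counts in combination, 5.57 to 12.0 in alpelisib, 3.25 to 17.8 in nintedanib and 1.37 to 5.16 in vehicle libraries, and the highest value of any of them in any library was 9.87, for CD3E. The 10 macrophage markers summed to 1258 to 1863 in combination, 1019 to 1578 in alpelisib, 784 to 2334 in nintedanib and 619.5 to 1097 in vehicle libraries. CD68 was the most abundant of them, with a mean of 665, then EMR1 with 220 and CD14 with 219. Of the 10, 7 averaged at least 10 normalized counts, while MRC1 and CD163 reached at most 2.19 and 4.34. The 6 neutrophil markers summed to 65426 to 171586 in combination, 90175 to 135297 in alpelisib, 51586 to 226738 in nintedanib and 24414 to 107457 in vehicle libraries. Nearly all of this was S100A9 and S100A8, with means of 69337 and 28743, which squamous epithelium also expresses. FCGR3B reached at most 138, CSF3R 4.82, MPO 2.61 and ELANE 0.804. The 7 endothelial markers summed to 157 to 431 in combination, 352 to 501.8 in alpelisib, 135 to 329 in nintedanib and 186 to 477 in vehicle libraries, mostly VWF with a mean of 267, while CDH5 reached at most 2.19. The 8 fibroblast markers, led by COL1A1 with a mean of 3355, summed to 2899 to 7507 in combination, 1864 to 4400 in alpelisib, 1630 to 9895 in nintedanib and 2085 to 6903 in vehicle libraries. The 12 markers of the tumour epithelium summed to 706065 to 1279482 in combination and 587220 to 917146 in alpelisib libraries. They summed to 438453 to 887723 in nintedanib and 307613 to 562448 in vehicle libraries. In the sums of this list and of the macrophage list, all combination libraries lay above all vehicle libraries, while the other lists overlapped between these 2 groups. All alpelisib libraries lay above all vehicle libraries in the tumour epithelium sum and in the T and natural killer sum. The latter was low throughout, at 5.57 or more with alpelisib and at most 5.16 with vehicle. The part of these lists in the CCL5 result was not tested. Mouse Ccl5 averaged 142 ± 120 normalized counts in combination, 136 ± 32.7 in alpelisib, 343 ± 357 in nintedanib and 110 ± 75.7 in vehicle libraries.

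**Figure D2:**
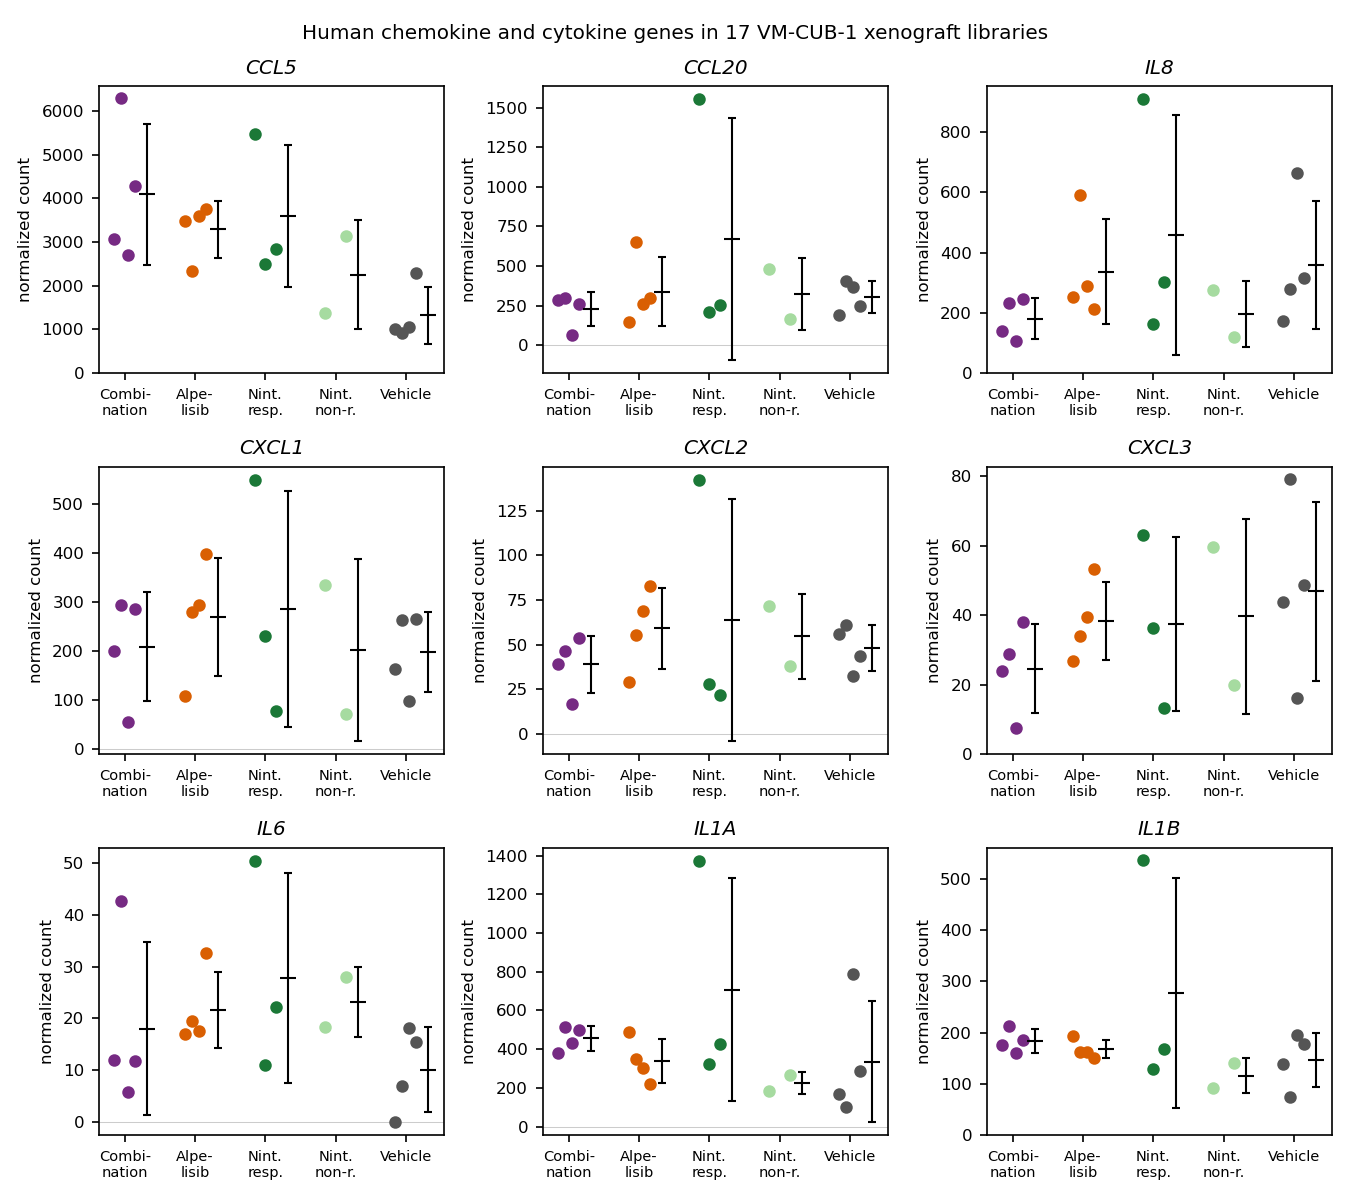
Normalized counts (linear axis) of the 9 tested genes, 1 point per library, in combination, alpelisib, nintedanib responder, nintedanib non-responder and vehicle tumours, with the group mean (dash) and SD (bar). CCL5 is the only panel in which all combination and all alpelisib points lie above all vehicle points, and the highest point in 7 of the 9 panels belongs to nintedanib responder 1.

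CCL20 encodes MIP-3 alpha, the ligand of CCR6 on dendritic cells and T helper 17 cells. Combination tumours had 283, 299.9, 67.3 and 259 normalized counts, against 194, 404, 371 and 248.5 in vehicle tumours. The groups overlapped, with Combination 3 lowest of all 17 libraries, and the change was -0.57 ± 0.60 (limma adjusted p = 0.638), or -0.057 without Combination 3. Alpelisib tumours had 148, 653, 260.2 and 296 normalized counts, and the change against vehicle was 0.01 ± 0.60. Nintedanib tumours had 1554, 208 and 254 as responders and 483 and 165 as non-responders, with a change of 0.33 ± 0.57. The means were 533 ± 584 in nintedanib and 304 ± 99.5 in vehicle tumours, and without responder 1 the change was -0.19. The combination differed from nintedanib by -0.89 ± 0.57 (unadjusted p = 0.137, adjusted p = 0.988), by -0.37 without responder 1 and by -0.38 without Combination 3.

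CCL2 was at or close to 0 in tumour cells in every group. It had at most 2 reads in any library, with 0 in all 4 alpelisib libraries and 0 or 1 in the nintedanib and vehicle libraries. As no library exceeded 3 reads, no fold change is given.

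IL8 (now CXCL8), CXCL1, CXCL2 and CXCL3 encode chemokines that attract neutrophils and act on endothelial cells through CXCR2, and IL8 also through CXCR1. In RefSeq (GRCh38.p14, used for names and neighbours only) CXCL2 and CXCL3 lie next to each other, with 3 protein-coding genes between CXCL3 and CXCL1 and 2 between CXCL1 and IL8. CXCL1, CXCL2 and CXCL3 are close copies of each other, and the read counter is not given in the sources used here, so the split of reads among these 3 genes is uncertain. None of the 4 genes passed in any of the 7 comparisons by limma, edgeR or DESeq2, but DESeq2 gave them no adjusted p for alpelisib or nintedanib against vehicle.

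IL8 had its lowest group mean in combination tumours. They had 139, 232, 106 and 246 normalized counts, against 173, 279.7, 664 and 317 in vehicle tumours. The groups overlapped, with means of 181 ± 68.7 in combination and 358 ± 213 in vehicle tumours, and the change was -0.89 ± 0.49 (95% interval -1.93 to 0.14, unadjusted p = 0.0870, limma adjusted p = 0.346). Alpelisib tumours had 252, 593, 289 and 213, and the change against vehicle was -0.04 ± 0.49. Nintedanib tumours had 911, 161.5 and 303 as responders and 275 and 118.5 as non-responders, with a change of -0.23 ± 0.47. The combination differed from alpelisib by -0.86 ± 0.49 (unadjusted p = 0.0998) and from nintedanib by -0.66 ± 0.47 (unadjusted p = 0.174), and neither passed (adjusted p = 0.943 and 0.988).

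CXCL1, first known as growth-related oncogene alpha, had similar ranges in all groups. Combination tumours had 199.8, 294, 55.7 and 285 normalized counts, against 164, 262, 98.3 and 264.5 in vehicle tumours, and the change was -0.06 ± 0.63. Alpelisib tumours had 108, 278, 294 and 398, with a change of 0.41 ± 0.63. Nintedanib tumours had 548, 229 and 77.6 as responders and 333 and 70.7 as non-responders, with a change of 0.04 ± 0.60. Each of these 3 intervals spanned more than a doubling in at least 1 direction, the widest being -0.91 to 1.73 for alpelisib and -1.39 to 1.26 for the combination.

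CXCL2 and CXCL3, first known as growth-related oncogenes beta and gamma, had no change that passed. CXCL2 averaged 39.0 ± 16.05 in combination, 59.05 ± 22.9 in alpelisib, 60.2 ± 49.7 in nintedanib and 48.1 ± 12.9 normalized counts in vehicle tumours, with changes of -0.37 ± 0.51, 0.24 ± 0.51 and 0.02 ± 0.48 against vehicle. Without Combination 3 the CXCL2 change in the combination was -0.019. CXCL3 had 23.9, 28.9, 7.48 and 37.9 in combination tumours, against 43.7, 79.1, 16.05 and 48.8 in vehicle tumours. The groups overlapped, and the change was -0.91 ± 0.56 (95% interval -2.08 to 0.26, unadjusted p = 0.120, limma adjusted p = 0.397), or -0.44 without Combination 3. CXCL3 averaged 38.3 ± 11.25 in alpelisib and 38.4 ± 22.6 in nintedanib tumours, with changes of -0.13 ± 0.56 and -0.31 ± 0.53. CXCL3 had between 8 and 138 reads per library, so counting error adds to its spread.

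**Figure D3:**
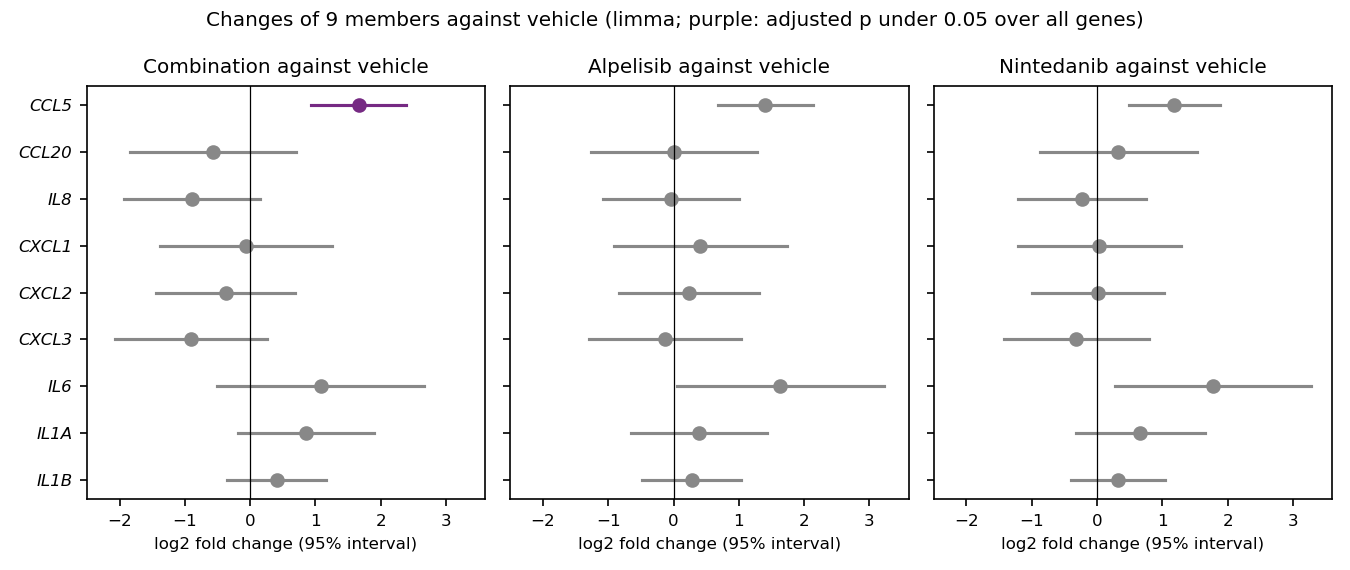
Log2 fold changes (points) with 95% intervals (lines) of the 9 tested genes for combination, alpelisib and nintedanib, each against the same 4 vehicle libraries, from limma. CCL5 in the combination, at 1.66, is the only change with an adjusted p under 0.05, and the intervals of the 4 CXC genes all include 0.

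IL6, IL1A and IL1B encode cytokines with wide effects. IL-6 signals through gp130 to STAT3. IL-1 alpha and IL-1 beta act on the same receptor. The first is active as the full-length protein and the second only after cleavage, for example by caspase-1.

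IL6 had at most 53 reads in a library. Combination tumours had 11.9, 42.6, 5.815 and 11.8 normalized counts, against 0, 6.88, 18.05 and 15.4 in vehicle tumours, and the change was 1.08 ± 0.75 (limma adjusted p = 0.455). Vehicle 1 had 0 reads, which allows up to 4.10 normalized counts (3 reads). Alpelisib tumours had 16.97, 19.4, 17.5 and 32.6, and the change was 1.63 ± 0.75 (unadjusted p = 0.0437, adjusted p = 0.261). Nintedanib tumours had 50.35, 10.99 and 22.2 as responders and 18.4 and 28.0 as non-responders, with a change of 1.77 ± 0.72 (unadjusted p = 0.0234, adjusted p = 0.619). Unadjusted p values under 0.05 were found for 18.6% of all tested genes with alpelisib and 7.12% with nintedanib. Without Vehicle 1 the 3 changes were 0.14, 0.70 and 0.83, for the combination, alpelisib and nintedanib. The departure from additivity was -2.33 ± 1.04 (unadjusted p = 0.0381, adjusted p = 0.662), against 6.85% of genes with an unadjusted p under 0.05, and it was -1.39 without Vehicle 1.

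IL1A did not pass against vehicle with any treatment. Combination tumours had 379, 516, 429 and 498 normalized counts, against 168, 100.3, 788 and 285 in vehicle tumours. The combination values were close together and lay within the vehicle range, and the change was 0.86 ± 0.50 (95% interval -0.18 to 1.90, unadjusted p = 0.0991, limma adjusted p = 0.365). It was 0.43 without Vehicle 2 and 1.42 without Vehicle 3, where the unadjusted p was 0.00305 and the adjusted p 0.115. Alpelisib tumours had 491, 351, 302 and 219.5, with a change of 0.40 ± 0.50. Nintedanib tumours had 1372, 324 and 429 as responders and 186 and 267 as non-responders, with a change of 0.66 ± 0.47. All 3 responders lay above both non-responders, as did 6.85% of all tested genes in that direction, and the difference was 1.37 ± 0.64 (unadjusted p = 0.0468, adjusted p = 0.999, 1.63% of genes at an unadjusted p under 0.05). Without responder 1 that difference was 0.74.

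IL1B, like IL1A, had no change that passed. Combination tumours had 176, 213, 159.5 and 186 normalized counts, against 139, 73.9, 195 and 177 in vehicle tumours, with a change of 0.41 ± 0.36 (limma adjusted p = 0.562). Alpelisib tumours averaged 168 ± 18.3 and nintedanib tumours 213 ± 183, with changes of 0.28 ± 0.36 and 0.32 ± 0.34. Nintedanib responders had 536, 129 and 168, against 92.0 and 139.8 in non-responders. These groups overlapped, and the difference was 0.99 ± 0.47 (unadjusted p = 0.0468, adjusted p = 0.999), or 0.38 without responder 1. IL8 differed by 0.97 ± 0.64 in the same comparison (unadjusted p = 0.146), and by 0.29 (without responder 1) to 1.57 (without non-responder 1) as each library was left out in turn. In this comparison 0% of the tested genes passed.

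The members varied more within groups than most genes. The SD within groups on the log2 scale was 0.56 for CCL5, 0.57 for IL1B, 0.81 for CXCL2, 0.82 for IL8, 0.83 for IL1A, 0.89 for CXCL3, 1.02 for CCL20, 1.06 for CXCL1 and 1.23 for IL6. The median over all tested genes was 0.39. These genes were not matched for level, and counting error widens the SD of low genes. IL6 had 0 to 53 reads per library and CXCL3 8 to 138. The part of counting error in these SDs was not tested. For 7 of the 9 members, at least 94.7% of the tested genes had a smaller SD, and for CCL5 and IL1B 78.7% and 79.7% had.

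Single libraries accounted for part of that spread. Nintedanib responder 1 had the highest value of the 17 libraries in 7 of the 9 genes (CCL20, IL8, CXCL1, CXCL2, IL6, IL1A and IL1B), as it did in 8.02% of all tested genes. Its values were 5.99 times the median of the other 16 libraries for CCL20, 4.07 times for IL1A, 3.66 times for IL8, 3.29 times for IL1B and 1.80 times for CXCL3. Combination 3 had the lowest value in 5 of the 9 (CCL20, IL8, CXCL1, CXCL2 and CXCL3), as it did in 7.07% of all tested genes. It had 0.201 times the median of the other 16 libraries for CXCL3, 0.211 times for CXCL1 and 0.248 times for CCL20, but 0.918 times for CCL5 and 1.27 times for IL1A. These libraries were singled out after their values were seen.

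**Figure D4:**
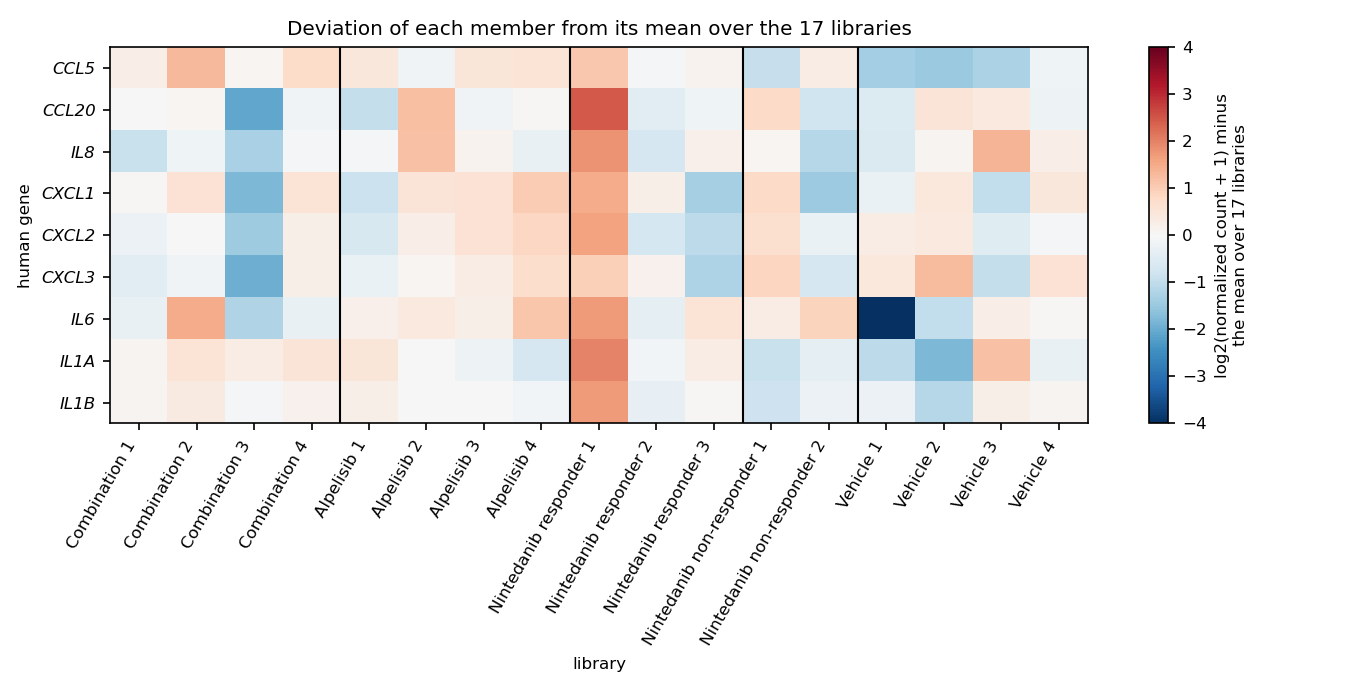
Deviation of each gene in each library from its own mean over the 17 libraries, on the log2(normalized count + 1) scale, with libraries ordered as combination, alpelisib, nintedanib responders, nintedanib non-responders and vehicle. The column of nintedanib responder 1 is red for all 9 genes, that of Combination 3 is blue for CCL20, IL6 and the 4 CXC genes, and CCL5 is blue in all vehicle libraries.

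The genes were compared pair by pair over the 17 libraries. Of 36 pairs, 10 had a Benjamini-Hochberg adjusted permutation p under 0.05 for Pearson's r (two-sided, 100000 permutations). CXCL1 and CXCL2 had r = 0.86 (permutation p = 2e-05, adjusted p = 0.00024) and Spearman's rho = 0.84 (p = 7e-05, adjusted p = 0.00084). CXCL1 and CXCL3 had r = 0.86 (permutation p = 2e-05, adjusted p = 0.00024) and rho = 0.76 (p = 0.00073, adjusted p = 0.00657), and CXCL2 and CXCL3 r = 0.83 (permutation p = 7e-05, adjusted p = 0.000576) and rho = 0.85 (p = 4e-05, adjusted p = 0.00072). Without the 2 libraries farthest from the median of the first gene of each pair, these r were 0.86, 0.80 and 0.77. After the group means were subtracted they were 0.89, 0.94 and 0.84. How reads were split among these 3 close copies is uncertain, and its part in these values was not tested.

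IL1A and IL1B, which lie next to each other in RefSeq, had r = 0.90 (permutation p = 1e-05, the smallest these permutations can give, adjusted p = 0.00024) and rho = 0.88 (p = 3e-05, adjusted p = 0.00072). Their r was 0.76 without nintedanib responder 1 and Vehicle 2, and 0.87 after subtraction of the group means. CCL20 and IL8, which lie on different chromosomes, had r = 0.82 (permutation p = 8e-05, adjusted p = 0.000576) and rho = 0.63 (p = 0.00812, adjusted p = 0.0418). Their r was 0.65 without Combination 3 and nintedanib responder 1, and 0.83 after subtraction of the group means. CCL20 also varied with the CXC trio. It had r = 0.77 with CXCL2 (permutation p = 0.00053, adjusted p = 0.00318) and rho = 0.67 (p = 0.00423, adjusted p = 0.0254). With CXCL1 it had r = 0.72 (permutation p = 0.00062, adjusted p = 0.00319) and rho = 0.69 (p = 0.00323, adjusted p = 0.0233), and with CXCL3 r = 0.61 (permutation p = 0.0104, adjusted p = 0.0375) and rho = 0.50 (p = 0.0449, adjusted p = 0.147). After subtraction of the group means these r were 0.81, 0.75 and 0.61. Without Combination 3 and nintedanib responder 1 they were 0.44, 0.49 and 0.28, with permutation p of 0.101, 0.0657 and 0.304. None of these 3 p values was under 0.05 even before adjustment.

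CCL5 stood apart from the CXC genes. Its r was -0.03 with IL8, 0.21 with CXCL1, 0.11 with CXCL2, -0.12 with CXCL3 and 0.04 with CCL20 (adjusted permutation p between 0.555 and 0.922). It had r = 0.64 with IL1B (permutation p = 0.00307, adjusted p = 0.0138, rho = 0.55 with adjusted p = 0.0935) and r = 0.63 with IL6 (permutation p = 0.00427, adjusted p = 0.0171, rho = 0.55 with adjusted p = 0.0935). With IL1A, r was 0.56 (permutation p = 0.0184, adjusted p = 0.0601, rho = 0.53 with adjusted p = 0.105). After subtraction of the group means r was 0.67 with IL1B, 0.59 with IL6 and 0.42 with IL1A. Without Vehicle 1 and Vehicle 2, r was 0.53 with IL1B, 0.41 with IL6 and 0.27 with IL1A. The permutation p over 15 libraries was 0.0538 for IL1B and 0.128 for IL6, neither under 0.05 even before adjustment.

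**Figure D5:**
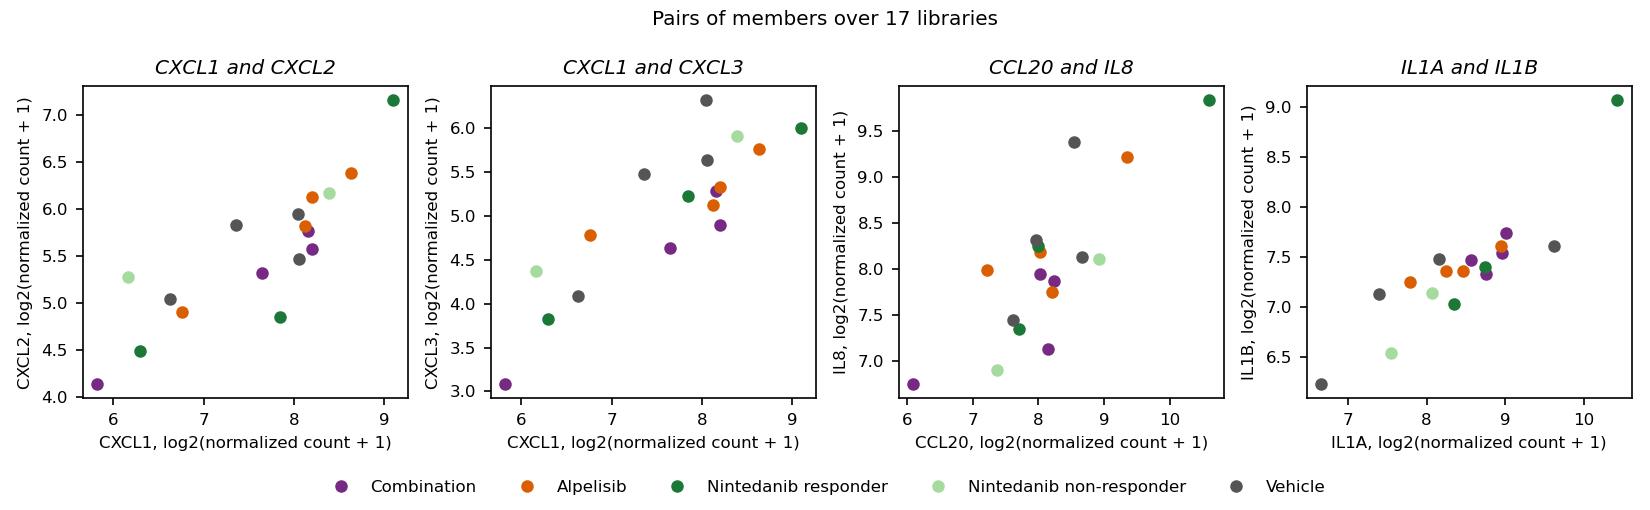
Pairs of genes over the 17 libraries, 1 point per library coloured by group, both axes as log2(normalized count + 1). CXCL1 follows CXCL2 and CXCL3 (r = 0.86 for both), CCL20 follows IL8 (r = 0.82) with nintedanib responder 1 at the upper end, and IL1A follows IL1B (r = 0.90).

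The genes most like each member were sought among 11886 human genes averaging 50 normalized counts or more, by Pearson's r over the 17 libraries. This is a description only, since the best of so many genes has a high r partly through the search. For CCL5 they were PI3, which encodes the protease inhibitor elafin (r = 0.95), and KRT16, a keratin of stressed and squamous epithelium (r = 0.94). For IL1A they were SOD2, the mitochondrial superoxide dismutase (0.89), and ERRFI1, an inhibitor of the EGF receptor (0.88). For IL1B they were RNASE7, an antimicrobial ribonuclease of epithelia (0.91), and BMP2, a bone morphogenetic protein (0.85). For CXCL3 they were TFPI2, a protease inhibitor (0.87), and CCDC109B (0.84), and for CXCL1 DHRS2 (0.86) and HMGB3 (0.83). CCL20 was most like CRLS1, the cardiolipin synthase (0.86), and C4orf52 (0.85). IL8 was most like USP3, a ubiquitin protease (0.83), and TMEM41B (0.82). CXCL2 was most like RP9 (0.85) and LOC100129361 (0.84), and IL6 most like STX11, a syntaxin (0.84), and LOC100507246 (0.81). For CCL5, r was 0.88 with PI3 and 0.90 with KRT16 after subtraction of the group means.

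Other genes of these pathways were listed, also with earlier results of these data known, and read in the same fit. The medians of these lists are therefore descriptions. No gene of the 7 lists passed in any of the 7 comparisons. The 2 genes named from each list had its smallest p in combination against vehicle. A lack of overlap between those groups is thus partly expected from that choice. Among other chemokines, 12 of 24 listed genes were tested, with a median change of -0.17 in the combination against -0.03 over all tested genes, and 5 had an unadjusted p under 0.05, as did 18.1% of all genes. CCL3, an attractant of monocytes and other leukocytes, had 18.5, 48.2, 18.3 and 16.99 normalized counts in combination tumours, against 5.46, 1.146, 2.01 and 12.7 in vehicle tumours. The groups did not overlap, as in 5.27% of all tested genes in that direction, although Vehicle 2 and Vehicle 3 held only 2 reads and 1 read. The change of CCL3 was 2.30 ± 0.79 (limma adjusted p = 0.157). CCL28, an epithelial chemokine, had a change of -0.92 ± 0.35 (adjusted p = 0.185), at 44.9 ± 23.5 in combination and 77.8 ± 8.79 in vehicle tumours.

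Among other cytokines, 19 of 28 were tested. Their median change was 0.43 in the combination (15 positive, 4 negative), 0.47 with alpelisib (17 and 2) and 0.49 with nintedanib (18 and 1), against -0.03, 0.02 and 0 over all tested genes, and all 3 share the vehicle libraries. IL36B, an IL-1 family cytokine of epithelia, averaged 24.9 ± 13.1 normalized counts in combination and 4.77 ± 2.74 in vehicle tumours (change 2.11 ± 0.56, adjusted p = 0.102). Vehicle 1, 2, 3 and 4 held only 3, 4, 2 and 13 reads of IL36B. IL11, which signals through gp130 like IL-6, averaged 61.0 ± 17.7 in combination and 29.7 ± 10.01 in vehicle tumours (change 1.02 ± 0.41, adjusted p = 0.207). Among receptors and antagonists, 12 of 25 were tested, with a median change of 0.13 in the combination. TNFRSF1A, the main TNF receptor, had a change of 0.58 ± 0.22 (adjusted p = 0.188), and IL1R2, the decoy receptor of IL-1, of 1.504 ± 0.76 (adjusted p = 0.307).

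NF-kB components and feedback targets, all 26 of which were tested, had a median change of 0.16 in the combination, and 4 had an unadjusted p under 0.05. TNIP1, which restrains NF-kB, had a change of 0.59 ± 0.20 and BCL3, an atypical inhibitor protein of the family, of 0.74 ± 0.26 (limma adjusted p = 0.157 and 0.160). The IL-1 production and processing list had a median of 0.49 (12 of 15 tested, 3 with an unadjusted p under 0.05), with PYCARD, the inflammasome adaptor ASC, at 1.11 ± 0.40 and the alarmin S100A9 at 1.32 ± 0.49 (adjusted p = 0.173 for both). The IL-6 signal and STAT3 list had a median of 0.35 (15 of 15 tested, 3 with an unadjusted p under 0.05). In it SOCS3, the feedback inhibitor of gp130 signalling, had 403, 1180, 653 and 501 normalized counts in combination tumours, against 157, 132, 261 and 391.5 in vehicle tumours. The groups did not overlap, nor did they for IL36B, IL1R2 and TNIP1, while 5.27% of all tested genes lay higher without overlap. As the named genes were picked for a small p in this comparison, that share is not a fair yardstick for them. The change of SOCS3 was 1.54 ± 0.40 (adjusted p = 0.0973). CEBPD, a transcription factor downstream of STAT3, had a change of 1.10 ± 0.38 (adjusted p = 0.160). The list on decay of cytokine mRNA had a median of -0.02 (10 of 11 tested), with TIA1 at -0.61 ± 0.28 and the ribonuclease gene ZC3H12A at 0.39 ± 0.25 (adjusted p = 0.263 and 0.415).

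Where limma called 0 genes, other counts were as follows. For alpelisib against vehicle, 2707 genes had an unadjusted p under 0.05, with 0 calls by edgeR and 173 by DESeq2, whose own filter left 1008 genes with an adjusted p there and for nintedanib, with CCL5 the only member among them. For nintedanib against vehicle these were 1035, 0 and 13, for combination against alpelisib 648, 0 and 0, for combination against nintedanib 556, 0 and 1, for responders against non-responders 237, 0 and 0, and for the departure from additivity 995, 0 and 0. Of the 9 members, 2 (CCL5 and IL6) had an unadjusted p under 0.05 against vehicle with alpelisib and the same 2 with nintedanib.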

How the data were processed

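RNA of 17 tumours was sequenced as 75-bp paired-end reads from polyA libraries (TruSeq v2, NextSeq500), per the labels' protocols. Per the submitters' processing notes, Bowtie, TopHat and DESeq2 were used with the builds hg19 and mm10, no versions given. Reads were mapped separately to both genomes, per the series description. For the read counter, annotation and strand setting, nothing is given in the sources used here. The authors deposited normalized counts, a per-gene signal of reads divided by a size factor of each library. All human values (100%) were whole reads after division by 1 step per library (tolerance 0.01), and those reads fed edgeR and DESeq2 as alternatives.

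The main test was limma-trend (limma 3.58.1, R 4.3.3) on log2(value + 1), with 1 mean per group over the 17 libraries, 7 contrasts and Benjamini-Hochberg adjustment over 14533 genes. The nintedanib mean weighted its 5 libraries equally. edgeR 4.0.16, DESeq2 1.42.0 and numpy 2.4.6 were also used. The fit was tested on simulated data. The members and gene lists were chosen with earlier results of these data known. All 10 members were named, with up to 4 passing genes per list (otherwise the 2 with the smallest p in combination against vehicle) and the 2 genes most like each member. Alternatives were TMM scaling, pseudocounts of 0.5 and 5, no filter, a minimum of 50, edgeR, DESeq2, a replicate block, only the compared groups, each library left out, and, chosen after seeing the data, the 4 libraries highest in ribosomal RNA left out. RefSeq matched 10 of 10 symbols, IL8 as a synonym of CXCL8. Floors of 3 reads cover counting error only. Of 22 pairs of libraries within a group none were copies (lowest chi-square per gene 18.61).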

Additional observations from a re-analysis of the deposited data

Results flagged for a closer look

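Each member was checked in each of the 4 treatment groups for a library whose gap to its nearest neighbour took up most of the group's range (Dixon's test). Of 36 such groups of values, 7 were flagged, each for its highest value. Chance flags about 1 in 20 where values are normally distributed. The test was run on normalized counts, not on the log2 scale, so that rate may not hold here. Of the 7 flags, 4 lay in nintedanib responder 1 and are counts of the same tumour. There CCL20 was 1554 normalized counts, with 165 to 483 in the other nintedanib libraries. IL8 was 911 there, with 118.5 to 303 in the others. IL1A was 1372, with 186 to 429 in the others, and IL1B 536, with 92.0 to 168. CCL5 in Vehicle 4 was 2292, against 908 to 1061 in the other vehicle libraries, and without Vehicle 4 the change of CCL5 in the combination was 1.97 (limma adjusted p = 0.0210). IL6 in Combination 2 was 42.6, with 5.815 to 11.9 in the other combination libraries, and in Alpelisib 4 it was 32.6, with 16.97 to 19.4 in the others.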

How the results depend on the processing

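The comparison of combination with vehicle set the limits of these data. There, 52 genes were called (46 higher, 6 lower). Each alternative had its own total, and the overlap with the 52 was not counted. The totals were 0 without a filter on low values (0 members), 34 with a minimum mean of 50, 496 by DESeq2, 29 with the replicate block, 7 with only the compared groups in the fit and 0 without the 4 libraries highest in ribosomal RNA. Leave-one-out counts ranged from 0 to 97, with 0 without Combination 2, 3 or 4 or Vehicle 1, 2 or 3, 10 to 26 without 1 alpelisib library, 81 and 88 without nintedanib responder 1 or 3, and 97 without Combination 1. CCL5, the 1 member called, was called in 7 of 17 leave-one-out fits (member counts from 0 to 1). The member count was also 0 with a minimum mean of 50, by edgeR, with the replicate block, with only the compared groups and without the 4 libraries. DESeq2, whose filter left 1008 genes and 1 member with an adjusted p for each single drug, called 173 genes and 1 member for alpelisib, 13 genes and 1 member for nintedanib, and 1 gene for combination against nintedanib. The nintedanib count ranged from 0 to 1 when libraries were left out. The replicate numbers do not pair the libraries: same-number libraries correlated above 0.1 in 3 of 12 cases, against 14 of 36 for different numbers, and the replicate block changed no member call other than that of CCL5.

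Of 1017 alternative values of 38 member changes, 36 had the opposite sign, and 0 of these passed. The changes concerned lay between -0.23 and 0.40 as reported. For CXCL1 in the combination they were 0.054 by edgeR and 0.082 by DESeq2. With alpelisib they were -0.024 for CCL20 under TMM scaling, -0.027 for IL1A by edgeR, and 0.35 for IL8 and -0.045 for CXCL2 without the 4 libraries. With nintedanib they were -0.011 for CXCL2 under TMM scaling and, without the 4 libraries, 0.12 for IL8, -0.26 for CXCL1 and -0.16 for CXCL2. Leave-one-out ranges that crossed 0 were -0.36 to 0.48 for CXCL1 in the combination. With alpelisib they were -0.37 to 0.34 for CCL20, -0.35 to 0.32 for IL8, -0.56 to 0.18 for CXCL3, -0.038 to 0.95 for IL1A and -0.014 to 0.45 for IL1B. With nintedanib they were -0.19 to 0.61 for CCL20, -0.67 to 0.12 for IL8, -0.35 to 0.38 for CXCL1, -0.38 to 0.29 for CXCL2 and -0.085 to 0.55 for IL1B. The cause of these shifts was not tested.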

Other observations

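The high values of nintedanib responder 1 extended beyond the members, an observation made after its values were seen. Of the 19 other cytokines tested, 9 had their highest value in this library, as had 5 of 12 receptors and antagonists and 6 of 26 NF-kB genes. So had 5 of 15 IL-6 signal and STAT3 genes, 3 of 12 IL-1 production and processing genes and 3 of 10 genes on decay of cytokine mRNA. Among other chemokines it was 0 of 12, and among all tested genes 8.02%. CSF2, which encodes GM-CSF, had 266 normalized counts there, against a median of 10.9 and a maximum of 33.0 in the other 16 libraries. CSF3, which encodes G-CSF, had 562, against a median of 30.7 and a maximum of 85.2. IL1R2, the IL-1 decoy receptor, had 1343, against a median of 67.3 and a maximum of 249.7. IL36G, an IL-1 family cytokine, had 523, against a median of 47.6 and a maximum of 137. In the other libraries that the titles call responders, CCL20 was 208 and 254 normalized counts, within the range of the remaining groups.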
